A study of Mus musculus with 12 samples.

Results

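The genes described here are the core proteins and kinases that decide which exons of a transcript are joined: the serine/arginine-rich (SR) splicing factors named Srsf, the heterogeneous nuclear ribonucleoproteins named Hnrnp, the CDC-like kinases Clk1 to Clk4 and the SR-like proteins Tra2a and Tra2b. They were taken by symbol, as every protein-coding gene whose name has one of these stems. The rule found 37 genes among 53707 rows of the gene table, of which 11 are SR factors, 20 are hnRNPs, 4 are CLK kinases and 2 are Tra2 proteins. All 37 passed the filter on low counts. The GENCODE M21 annotation of GRCm38 gives them 343 transcripts, all of which were in the transcript table, with 153 labelled protein-coding, 102 retained-intron, 46 nonsense-mediated decay and 42 processed transcript without a coding frame.

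SR proteins bind enhancer sequences in exons through RNA recognition motifs and recruit the splicing machinery with an arginine/serine-rich tail, while many hnRNPs bind the nascent RNA and block splice sites. CLK kinases phosphorylate the arginine/serine tails of SR proteins in the nucleus and so set how much SR protein is free to act. Many of these genes regulate themselves: a transcript that takes in a so-called poison exon, or keeps an intron, meets an early stop codon and is destroyed by nonsense-mediated decay (NMD), or stays in the nucleus. The share of such transcripts in a gene is therefore read separately from the gene's total RNA level.

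Retinas of wild-type C57Bl/6J mice at 28 days of age were freed of the pigment epithelium and kept as whole explants for 48 hours in Neurobasal-A medium with B27 and N2 supplements, which contained either 5 mM or 25 mM glucose. No other agent and no altered gene separated the groups. There were 3 biological replicates at each concentration, each with 2 technical replicates, and all first technical replicates belong to batch 1 and all second ones to batch 2. The comparison asks what a higher glucose supply changes in the RNA of the cultured retina.

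The 12 libraries held 14815285 to 36692484 estimated counts, and both libraries of each biological replicate were added up. Replicate 1 at 5 mM glucose stood apart from the other replicates in the level of the splicing regulators. It was the highest of the 6 replicates in 22 of the 37 genes (59.5%), against 18.5% of all genes tested, and the summed level of the 37 genes was 14483 CPM (counts scaled to library size) in it, against 9939 and 10562 CPM in the other 5 mM replicates and 11792, 13110 and 11340 CPM at 25 mM. Counts of called genes and shares are therefore given with and without it, and so are single values that it moves strongly. Its difference was not confined to these genes. Among the 5 mM replicates it had the lowest summed rod markers, 3679 CPM against 6148 and 5438 CPM. Vascular markers (1238 CPM against 2036 and 2133 CPM), microglial and Müller glia markers were also lowest in it. Inner retinal neuron markers were highest in it, at 1989 CPM against 1717 and 1731 CPM. Markers of other cells also moved with glucose. All 15 rod markers had higher means at 25 mM (summed level 3679 to 6148 CPM at 5 mM and 9822 to 13506 CPM at 25 mM), while 9 of 10 vascular markers (1238 to 2133 and 623 to 1121 CPM), 10 of 10 microglial markers (303 to 443 and 127 to 254 CPM) and 7 of 10 Müller glia markers (3486 to 4842 and 2394 to 3327 CPM) had lower means. No marker was at 0 in any replicate, and the part of these shifts in the results below was not tested. In whole tissue, fewer cells of a type and less RNA per cell cannot be told apart.

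At gene level, 0 of the 37 splicing regulators passed a false discovery rate (FDR, Benjamini-Hochberg) under 0.05 in edgeR's quasi-likelihood test, where 1.98% of 21061 genes were called and 1.47% of the 21061 were called higher at 25 mM. None passed the stricter limit of an FDR under 0.01 with a fold change over 2, which 0% of all genes passed. An unadjusted p under 0.05 was reached by 2 of the 37, against 28.7% of all genes. DESeq2 called 1 of the 37, Hnrnph3, where it called 16.6% of all genes. The log2 fold changes (25 mM over 5 mM) ran from -0.52 to 0.71 with a median of 0.0058, and 19 genes had a higher and 18 a lower mean at 25 mM. The median was -0.0095 over all genes and -0.12 over the 16072 protein-coding genes tested, of which 6684 had a higher and 9388 a lower mean. With 1 biological replicate left out in turn, the median of the 37 ran from -0.080 to 0.17 and that of all genes from -0.028 to 0.035. The value of 0.17 is that without replicate 1 at 5 mM, so the even split of directions rests on that replicate. In 33 of the 37 genes the log2 fold change was smaller than 0.5 in size. The replicates of the 2 concentrations did not overlap in 5 genes (Hnrnph3, Srsf4, Hnrnpab, Hnrnpul1 and Hnrnpf), against 31.8% of all genes. Exons of 12 of the 37 genes overlap those of a gene on the opposite strand (Clk3, Srsf1, Srsf2, Srsf4, Hnrnpab, Hnrnpd, Hnrnpf, Hnrnph3, Hnrnpk, Hnrnpl, Hnrnpr and Hnrnpu), and whether the counting used strand is not given in the sources used here. Exons of Clk4, Hnrnpa3, Hnrnpm and Hnrnpul2 overlap those of Gm25082, Gm24574, March2 and AC129217.1 on the same strand, where strand cannot separate reads.

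**Figure D1:**
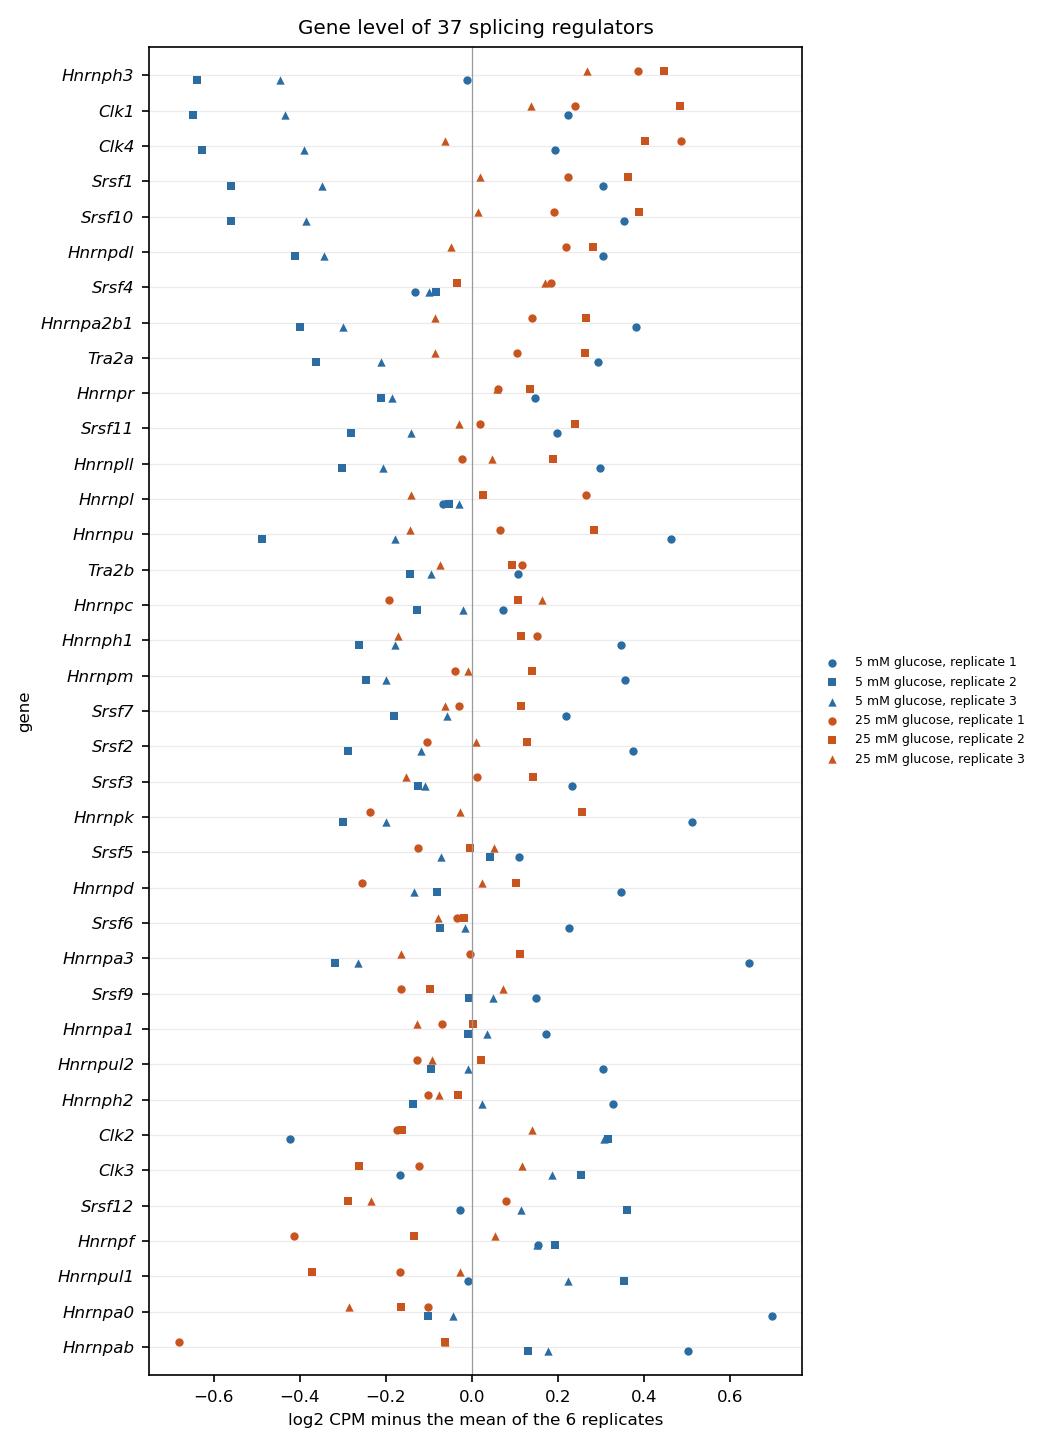
Level of the 37 splicing regulators in each biological replicate (x axis, log2 CPM minus the mean of the 6 replicates of that gene), with genes ordered by the log2 fold change; blue marks 5 mM and orange 25 mM glucose, and the shapes mark replicates 1 to 3. The blue circles of replicate 1 at 5 mM lie farthest to the right in 22 of 37 rows, and the colours are separated in 5 rows.

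The CLK kinases split into a pair with higher and a pair with lower means. Clk1 (ENSMUSG00000026034, chr1:58410189-58424066, minus strand of GRCm38) measured 359, 196 and 227 CPM in replicates 1, 2 and 3 at 5 mM glucose and 363, 430.0 and 338 CPM at 25 mM. Its closest relative Clk4 (chr11:51261730-51281766, plus strand) measured 227, 128 and 152 CPM at 5 mM and 278, 262 and 190.2 CPM at 25 mM. In both kinases replicates 2 and 3 at 5 mM lay below all 25 mM replicates, and replicate 1 at 5 mM lay among them. The log2 ratio of 25 mM to 5 mM was 0.53 for Clk1 (standard error 0.25, FDR 0.198, edgeR) and 0.53 for Clk4 (standard error 0.25, FDR 0.206). Both were above 0 in each batch, at 0.65 and 0.47 for Clk1 and 0.77 and 0.35 for Clk4 in batches 1 and 2. Clk2 and Clk3 phosphorylate the same kind of substrate. Clk2 (chr3:89164795-89176921, plus strand) measured 24.5, 40.8 and 40.6 CPM at 5 mM and 29.1, 29.3 and 36.2 CPM at 25 mM, and here replicate 1 at 5 mM was the lowest of all. Clk3 (chr9:57750624-57765860, minus strand), which shares exonic sequence with Edc3 on the other strand, measured 59.2, 79.1 and 75.6 CPM at 5 mM and 61.0, 55.4 and 71.9 CPM at 25 mM. Neither separated the concentrations (log2 fold changes -0.16 and -0.18, FDR 0.669 and 0.523).

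All 4 kinases have an annotated transcript that keeps the intron shown here, and the ends of these introns are printed because such transcripts make up part of the retained-intron shares given below. Capitals mark the first and last 2 bases of the intron, with 3 bases of exon on the outer side (sequence from the GENCODE transcripts, GRCm38).
Clk1 donor (chr1:58419734-58420120, minus strand, 387 bases): gatGTatag
Clk4 donor (chr11:51273169-51273559, plus strand, 391 bases): gatGTatag
Clk3 donor (chr9:57758351-57758626, minus strand, 276 bases): gatGTacag
Clk2 donor (chr3:89169703-89170048, plus strand, 346 bases): gatGTacaa
Clk1 acceptor: taattattcctcttttttAGatg
Clk4 acceptor: ctttctctcccttactttAGatg
Clk3 acceptor: cagcttcttctttctcacAGatg
Clk2 acceptor: cctactttctttcgtttcAGatg
The donor sites of Clk1 and Clk4 are identical over these 9 bases, and in all 4 genes the exon ends in gat before the intron and starts with atg after it. Across the 37 genes, 45 distinct whole introns were kept in annotated retained-intron transcripts of 21 genes, and all 45 begin with GT and end with AG. The shortest, in Srsf5, has only 21 bases. Only 40 of the 102 retained-intron transcripts hold such a whole intron of a coding transcript. None was found in Hnrnpc, Hnrnpd, Hnrnpm, Hnrnpu, Hnrnpul1, Srsf4 or Srsf11, so the retained-intron share is that of an annotated class and not a measure of whole kept introns. In Hnrnpl only Hnrnpl-203 and Hnrnpl-210 hold such an intron, with 624 and 4330 of the 30831 counts in that class.

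The Tra2 proteins, which bind GAA-rich enhancers and carry an arginine/serine-rich region at both ends, did not separate the concentrations. Tra2a (chr6:49243924-49264033, minus strand) measured 293, 186 and 206 CPM at 5 mM and 257, 287 and 225 CPM at 25 mM (log2 fold change 0.17, FDR 0.623). Without replicate 1 at 5 mM the Tra2a value was 0.38 (FDR 0.106, edgeR). Tra2b (chr16:22244549-22266005, minus strand) measured 254, 214 and 221 CPM and 256, 252 and 224 CPM (log2 fold change 0.088, FDR 0.734). Batch 1 alone gave Tra2b a log2 fold change of -0.018, and batch 2 alone 0.25.

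Among the 11 SR factors, 0 were called, the median log2 fold change was -0.0040 and the range -0.30 to 0.36. Of those with higher means at 25 mM, Srsf1, the founding member of the family, measured 544, 299 and 346 CPM at 5 mM and 514, 566 and 447 CPM at 25 mM. Srsf10, which turns into a general splicing repressor when it loses its phosphates, had the same layout, with 344, 183 and 206 CPM at 5 mM and 307, 352 and 272 CPM at 25 mM. In both, replicate 1 at 5 mM lay inside the range of the 25 mM replicates and the other 5 mM replicates lay below it, and the log2 fold changes were 0.36 and 0.35 (FDR 0.358 and 0.391). Srsf4, a long-tailed SR factor, was the one SR gene without overlap, at 50.9, 52.6 and 52.1 CPM and 63.4, 54.5 and 62.7 CPM (log2 fold change 0.21 ± 0.15, standard error and FDR 0.367). Srsf11, which has an RNA recognition motif and contacts the U2 auxiliary factor, measured 334, 239.6 and 264 CPM and 295, 344 and 285 CPM (log2 fold change 0.14, FDR 0.635).

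The 4 SR factors described on the lower side all overlapped between concentrations. Srsf12, per length the least abundant member and a close relative of Srsf10, measured 12.9, 16.9 and 14.3 CPM at 5 mM and 13.9, 10.8 and 11.2 CPM at 25 mM (log2 fold change -0.30, FDR 0.398), with 0.29 in batch 1 and -0.85 in batch 2. Srsf9 measured 23.3, 20.9 and 21.7 CPM and 18.7, 19.6 and 22.0 CPM (log2 fold change -0.13, FDR 0.666). Srsf6, which like Srsf4 has a long arginine/serine tail, measured 363, 295 and 307 CPM and 303, 306 and 294 CPM (log2 fold change -0.096, FDR 0.712). Srsf5, whose mean differed least among these, measured 519.6, 496 and 458 CPM and 442, 480.3 and 499 CPM, a log2 fold change of -0.053 (FDR 0.849) that was 0.0044 when scaled to library totals alone. Srsf2, Srsf3 and Srsf7 had log2 fold changes of -0.0040, -0.0040 and 0.0058, each with an FDR over 0.98.

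The 20 hnRNPs held the widest differences in both directions, and 0 of them were called. Hnrnph3 (ENSMUSG00000020069, chr10:63014664-63024217, minus strand), a member of the F/H group of hnRNPs, which bind runs of G, measured 133, 85.8 and 98.1 CPM at 5 mM glucose and 175, 182 and 161 CPM at 25 mM. Every 25 mM replicate lay above every 5 mM replicate, and the log2 fold change, 0.71 with a standard error of 0.20 and an FDR of 0.0754, was the largest of the 37. It was 0.97 in batch 1 and 0.53 in batch 2, and its exons overlap Rufy2 on the opposite strand. Hnrnpdl, Hnrnpr and Hnrnpa2b1 followed with smaller differences. Hnrnpdl, a relative of the AU-rich element binding protein Hnrnpd, measured 392, 239 and 250.1 CPM and 369, 385 and 307 CPM. Hnrnpr measured 202, 157 and 160.1 CPM and 190.0, 200.2 and 189.7 CPM. Hnrnpa2b1, a splicing repressor that also takes part in RNA transport, measured 1178, 685 and 735 CPM and 995, 1086 and 851 CPM. The ranges overlapped in all 3 genes, with log2 fold changes of 0.27, 0.16 and 0.17 (FDR 0.456, 0.534 and 0.663). Without replicate 1 at 5 mM the Hnrnpa2b1 value was 0.46 (FDR 0.0748, edgeR).

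Hnrnpab (chr11:51600100-51606847, minus strand) had the lowest log2 fold change. It measured 221, 171 and 177 CPM at 5 mM and 97.4, 149.5 and 149.5 CPM at 25 mM, without overlap (log2 fold change -0.52 with a standard error of 0.21, FDR 0.157). In batch 1 alone this was -1.05 and in batch 2 -0.058. Hnrnpul1, a relative of the nuclear scaffold protein Hnrnpu, measured 126, 162 and 148 CPM and 113, 97.7 and 124 CPM (log2 fold change -0.38, FDR 0.187), again without overlap. Hnrnpf, another member of the F/H group, measured 414, 425 and 413 CPM and 279, 339 and 386 CPM, also without overlap (log2 fold change -0.32, FDR 0.266). Hnrnpa0 measured 87.1, 50.03 and 52.1 CPM and 50.1, 47.9 and 44.0 CPM, a log2 fold change of -0.41 (FDR 0.274) that was -0.11 without replicate 1 at 5 mM. Both had opposite signs in the batches, -0.75 in batch 1 and 0.078 in batch 2 for Hnrnpf, and -1.19 and 0.26 for Hnrnpa0. Of the other 12 hnRNPs, the log2 fold change farthest from 0 was -0.15, in Hnrnph2. Without replicate 1 at 5 mM it was 0.40, in Hnrnpu (FDR 0.138, edgeR).

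Without replicate 1 at 5 mM, 6 of the 37 genes were called and all 6 were higher at 25 mM, against 11.7% of all genes called higher and 14.9% called lower in the same fit. They were Hnrnph3 (log2 fold change 0.91, FDR 0.0122), Clk1 (0.83, FDR 0.0165), Srsf10 (0.67, FDR 0.0264), Clk4 (0.80, FDR 0.0271), Srsf1 (0.66, FDR 0.0287) and Hnrnpdl (0.53, FDR 0.0442), by the same edgeR test. Replicate 1 at 5 mM was singled out for the high levels of these 37 genes, being the highest in 22 of them. Leaving it out raises the ratio of 25 mM to 5 mM in such genes, so the shared direction is no separate evidence. Each other omission of a single biological replicate gave 0 calls. In batch 1 alone 16 of 37 log2 fold changes were above 0 and in batch 2 alone 29 of 37, and 15 genes were above 0 in both. The smallest p that an exact permutation test of 3 replicates against 3 can give is 0.1, so single genes were tested with the fit across all genes.

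Per length of transcript, which allows genes to be compared with each other, the most and the least abundant members were the same at both concentrations. The level was taken as counts per base of annotated transcript, scaled to the same total in every replicate. Hnrnpk, a KH-domain protein that binds runs of C, was the most abundant at 1361 ± 376 at 5 mM and 1437 ± 111 at 25 mM (SD, n = 3). Hnrnpa2b1 came next at 1069 ± 287 and 1308 ± 137, and these neighbours did not differ beyond their spread. Srsf5 was the most abundant SR factor at 5 mM (489 ± 31.1) and Srsf1 at 25 mM (626 ± 62.7), and at 5 mM these neighbours did not differ beyond their spread (448 ± 129.7 for Srsf1). Among the kinases Clk1 (273 ± 78.6 and 429 ± 33.2) and Clk4 (232 ± 59.96 and 363 ± 74.9) were several times as abundant as Clk3 (68.3 ± 12.8 and 65.5 ± 11.7) and Clk2 (33.9 ± 9.47 and 32.7 ± 5.33). Clk1 stood at rank 16 of 37 at 5 mM and rank 9 at 25 mM, and Clk4 at rank 19 and rank 12. Srsf12 was last at 14.1 ± 2.4 and 12.5 ± 2.89.

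Retained-intron transcripts had a larger mean share in most splicing regulators at 25 mM glucose, as they had in most genes. The share is the percent of a gene's transcript counts that fall on transcripts annotated as retained-intron, and it was tested as the log2 ratio of these counts to the gene's other transcript counts. Of the 28 members with such transcripts, all 28 were tested and 24 had a higher ratio at 25 mM (85.7%), against 84% of the 7091 genes tested. No member passed an FDR under 0.05 in limma with Benjamini-Hochberg adjustment, where 0% of all genes were called, and an unadjusted p under 0.05 was reached by 9 members, all higher, against 29.8% of all genes. The median difference in log2 ratio was 0.31 in the members and 0.51 in all genes tested, and 29.1% of all genes had an unadjusted p under 0.05 with a higher ratio. Replicates did not overlap in 9 members, all higher at 25 mM, against 34.1% of all genes higher and 1.09% lower without overlap.

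**Figure D2:**
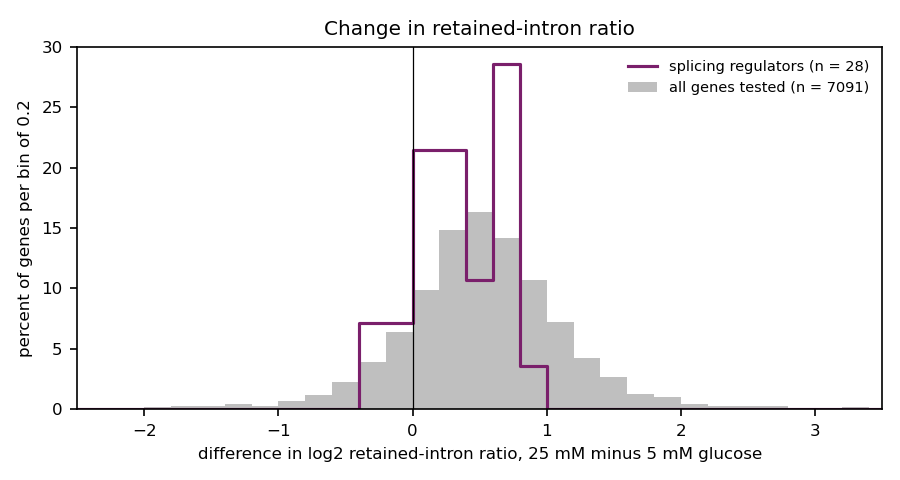
Difference in log2 ratio of retained-intron to other transcript counts (x axis, 25 mM minus 5 mM glucose) as percent of genes per bin (y axis); grey bars show all 7091 genes tested and the purple line the 28 splicing regulators. Both distributions lie mostly above 0, with medians of 0.51 and 0.31, and no splicing regulator reaches beyond 0.99.

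The members with the lowest p were Hnrnpl, Hnrnpll, Hnrnpm, Srsf2, Hnrnpul1 and Srsf4. Hnrnpl (ENSMUSG00000015165, chr7:28808541-28822266, plus strand), which binds CA repeats, had a retained-intron share of 38.5%, 30.9% and 31.8% at 5 mM and 49.1%, 51.0% and 40.6% at 25 mM. Hnrnpll (chr17:80029487-80062334, minus strand), its paralog known for the exon choice of CD45 in T cells, had 23.8%, 20.7% and 23.1% at 5 mM and 37.1%, 32.5% and 27.4% at 25 mM. In both genes every 25 mM replicate lay above every 5 mM replicate, and the difference in log2 ratio was 0.80 for Hnrnpl (standard error 0.22, FDR 0.0928, limma) and 0.71 for Hnrnpll (standard error 0.20, FDR 0.0961). Hnrnpm, which binds GU-rich RNA, had a share of 7.67%, 7.22% and 9.07% at 5 mM and 12.6%, 13.1% and 10.2% at 25 mM, a difference of 0.65 (FDR 0.0977). Hnrnpul1 had the largest difference in log2 ratio, 0.99 (standard error 0.34, FDR 0.115), on a small share of 2.58%, 1.3% and 1.56% at 5 mM and 3.36%, 4.32% and 2.68% at 25 mM.

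Srsf2, the SR factor that marks nuclear speckles, had a retained-intron share of 47.8%, 40.2% and 43.1% at 5 mM and 54.9%, 58.3% and 49.95% at 25 mM (difference 0.62, standard error 0.19, FDR 0.102). Its retained-intron counts come from a single annotated transcript, Srsf2-203, which keeps 2 introns, and Srsf2 shares exonic sequence with Mettl23 and Mfsd11 on the other strand. The ends of these introns are shown with capitals on the intron's first and last 2 bases.
Srsf2 donor (chr11:116851752-116852020, minus strand, 269 bases): atgGTaatg
Srsf2 acceptor: tgcattttccccctttaaAGctg
Srsf2 donor (chr11:116850962-116851647, minus strand, 686 bases): cagGTttgt
Srsf2 acceptor: ctctttcttttcaaacctAGatg
Srsf4 had a share of 38.4%, 29.9% and 36.0% at 5 mM and 55.0%, 51.6% and 37.8% at 25 mM, with replicate 3 at 25 mM just below replicate 1 at 5 mM (difference 0.80, FDR 0.131).

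**Figure D3:**
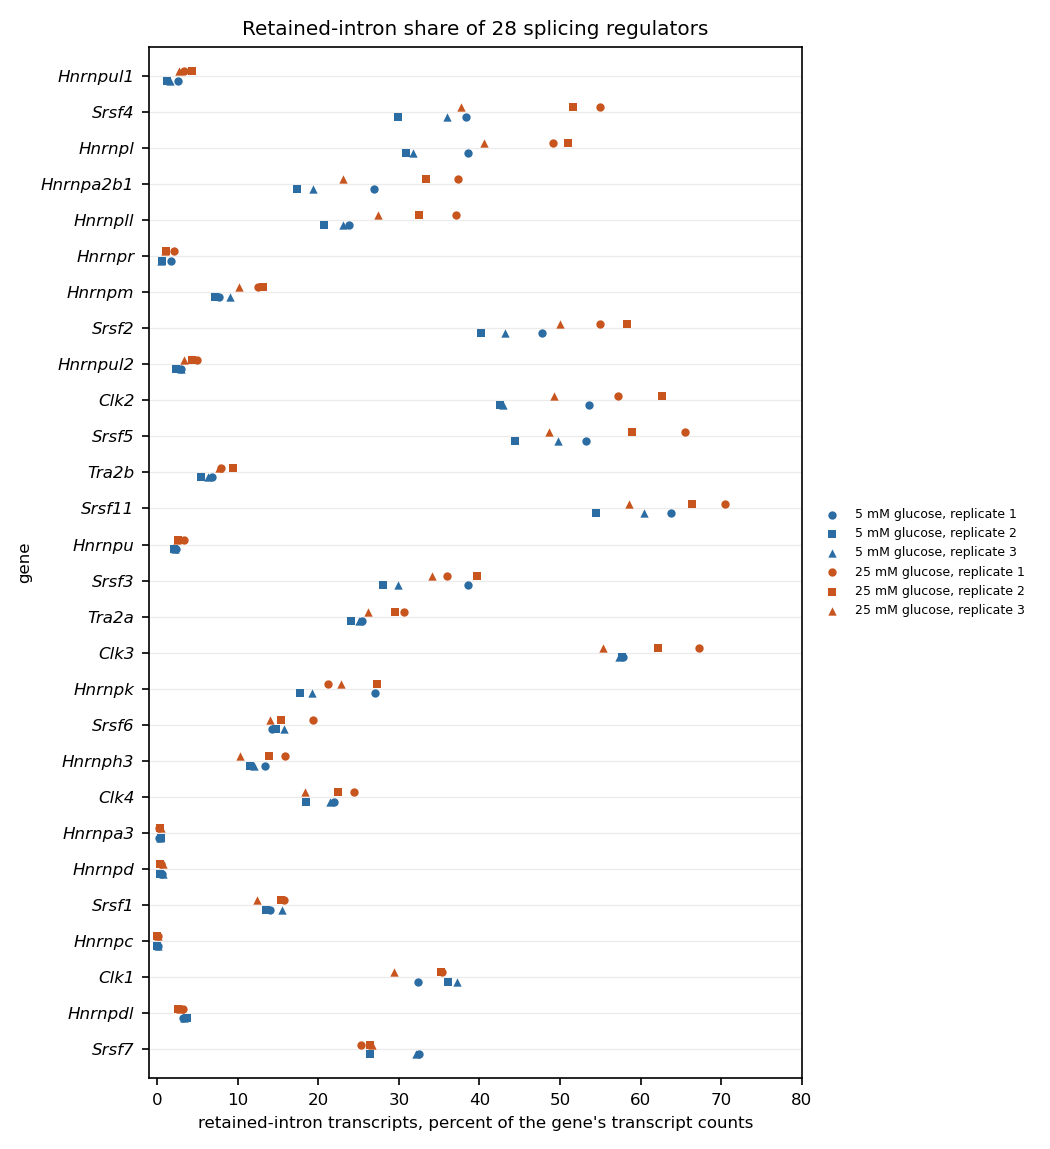
Retained-intron share of the 28 splicing regulators that have such transcripts, in percent of the gene's transcript counts (x axis), with genes ordered by the difference in log2 ratio; blue marks 5 mM and orange 25 mM glucose, and the shapes mark replicates 1 to 3. Shares range from under 0.1% in Hnrnpc to 70.4% in Srsf11, and orange lies to the right of blue without overlap in 9 rows.

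The CLK kinases held from 18.4% to 67.2% of their transcript counts in this class. Clk3 held 57.8%, 57.7% and 57.3% at 5 mM and 67.2%, 62.2% and 55.3% at 25 mM, and Clk2 held 53.5%, 42.5% and 42.9% and 57.2%, 62.7% and 49.2%. Clk1 held 32.4%, 36.1% and 37.3% and 35.4%, 35.2% and 29.4%, and Clk4 held 22.0%, 18.4% and 21.4% and 24.5%, 22.4% and 18.4%. The ranges of the concentrations overlapped in all 4 kinases, and the differences in log2 ratio were 0.59 for Clk2, 0.24 for Clk3, 0.093 for Clk4 and -0.12 for Clk1 (FDR 0.195, 0.439, 0.75 and 0.629). Clk1 and Clk4, the kinases with the higher means at 25 mM, were thus among those whose retained-intron ratio differed least. Clk1 was also 1 of 4 members with a lower ratio at 25 mM, together with Srsf7 (-0.29), Hnrnpdl (-0.25) and Hnrnpc (-0.11). The Tra2 genes had shares without overlap, 6.84%, 5.44% and 6.31% against 7.91%, 9.4% and 7.68% in Tra2b and 25.4%, 24.1% and 25.0% against 30.6%, 29.5% and 26.1% in Tra2a (differences 0.46 and 0.29, FDR 0.152 and 0.243).

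The differences were larger in batch 1. The median difference in log2 ratio was 0.63 in batch 1 and 0.13 in batch 2 over the 27 members measured in both, and 22 of them had the larger difference in batch 1. Srsf2 had a difference of 1.27 in batch 1 and 0.029 in batch 2, while Hnrnpul1 had 1.33 and 0.76. The first technical replicate of 25 mM replicate 2, a batch 1 library, had the highest retained-intron share of all 12 libraries in 20 of the 28 members. It held 59.7% in Hnrnpl and 67.6% in Srsf2, against 43.5% and 52.2% in the batch 2 library of the same biological replicate. It also had the lowest total count, 14815285, and the highest mitochondrial percent, 15.4%. Without this library the median difference of the members was 0.23 and that of all genes 0.43, and the differences of Hnrnpl, Srsf2 and Hnrnpul1 were 0.66, 0.50 and 0.63. Without replicate 1 at 5 mM, 5 of 28 members were called (Hnrnpl, Hnrnpul1, Srsf2, Hnrnpa2b1 and Hnrnpll, FDR 0.0277, 0.0302, 0.0379, 0.0474 and 0.04997, limma), all higher at 25 mM, against 20.8% of all genes called higher. That replicate had the highest median share of the members at 5 mM, 22.9% against 17.5% and 19.2%. Leaving it out therefore raises the median difference of the members, which was 0.47 without it. Over all omissions of a single biological replicate this median ran from 0.25 to 0.47, and that of all genes from 0.46 to 0.58. Each other omission of a single biological replicate gave 0 calls. Over whole libraries, retained-intron transcripts took 5.80% to 5.95% of annotated counts at 5 mM and 6.92% to 7.74% at 25 mM, and the summed level of 6 nuclear noncoding RNAs was 5896 to 8155 CPM at 5 mM and 9081 to 14286 CPM at 25 mM. Most of that sum was Malat1, at 4341 to 6859 CPM and 7511 to 13043 CPM. The 6 RNAs did not share a direction, since Neat1 had a lower mean at 25 mM, with 502 to 627 CPM and 189 to 382 CPM. Whether more nuclear or unspliced RNA in the 25 mM libraries has a part in the shares was not tested.

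Transcripts annotated as targets of nonsense-mediated decay showed no common direction. Of 25 members with such transcripts, 24 had enough counts and Srsf9 did not. Of the 24, 10 had a higher and 14 a lower log2 ratio at 25 mM, with a median of -0.072 against 0.088 in the 2952 genes tested. No member was called at an FDR under 0.05 in limma, where 0% of all genes were called. An unadjusted p under 0.05 was reached by 3 members, Hnrnpk, Hnrnpa1 and Clk4, all with a higher ratio, against 8.4% of all genes in either direction and 5.22% with a higher ratio. These 3 were also the members whose replicates did not overlap, against 15.8% of all genes, 10.1% higher and 5.69% lower. Without replicate 1 at 5 mM 0 members were called, against 0.384% of all genes.

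In 9 members the decay transcript carries a cassette exon that no coding transcript of the gene has, and which ends the reading frame. There are 11 such cassettes with lengths of 70 to 460 bases and a median of 276. The start of the cassette, up to and with its stop codon in capitals, is printed for 6 genes whose NMD counts lie wholly or nearly wholly on it (GENCODE transcripts, GRCm38).
Hnrnpl-213 (chr7:28817335-28817393, plus strand): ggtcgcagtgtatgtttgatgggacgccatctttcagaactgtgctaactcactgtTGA
Hnrnpll-203 (chr17:80044976-80045022, minus strand): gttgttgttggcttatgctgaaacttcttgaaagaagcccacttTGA
Tra2a-202 (chr6:49252965-49253108, minus strand): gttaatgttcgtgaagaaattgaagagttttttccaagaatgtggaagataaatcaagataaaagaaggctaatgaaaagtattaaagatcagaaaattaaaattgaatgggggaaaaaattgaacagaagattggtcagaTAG
Tra2b-206 (chr16:22259181-22259261, minus strand): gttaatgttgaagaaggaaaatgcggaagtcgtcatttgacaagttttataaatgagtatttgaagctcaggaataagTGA
Srsf3-201 (chr17:29039454-29039487, plus strand): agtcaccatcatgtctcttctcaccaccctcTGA
Srsf7-203 (chr17:80205054-80205081, minus strand): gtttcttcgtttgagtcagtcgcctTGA
The cassettes of Tra2a and Tra2b open with the same letters, gttaatgtt, and 5 of the 6 stop codons are TGA. In 31 of the 46 decay transcripts the stop codon instead lies in an exon that overlaps exons of coding transcripts, as in Hnrnpk, Hnrnpa1 and all CLK kinases.

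Hnrnpk had an NMD share of 2.04%, 2.19% and 1.52% at 5 mM and 3.28%, 2.67% and 3.37% at 25 mM, a difference in log2 ratio of 0.73 (standard error 0.22, FDR 0.52, limma). Hnrnpa1, the archetypal splicing silencer, had 32.7%, 31.6% and 32.5% and 38.0%, 36.5% and 39.2%, a difference of 0.36 (standard error 0.11, FDR 0.52), with replicates of a concentration within a few percent of each other. Hnrnpa1 has many processed pseudogenes, and reads shared with them could be divided by the authors' estimate. Clk4 had 11.2%, 10.7% and 10.1% and 16.6%, 15.6% and 12.1%, a difference of 0.52 (FDR 0.585) that was 0.84 in batch 1 and 0.22 in batch 2. In all 3 genes the share was higher in every 25 mM replicate.

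Hnrnpl had an NMD share of 33.5%, 16.6% and 19.8% at 5 mM and 33.1%, 35.1% and 32.9% at 25 mM (difference 0.80, standard error 0.35, FDR 0.585), so that replicate 1 at 5 mM lay with the 25 mM replicates. Hnrnpdl had lower shares at 25 mM, with 1.88%, 9.01% and 5.36% and 1.16%, 1.65% and 3.01% (difference -1.38, FDR 0.589). Hnrnpu, the nuclear scaffold protein, had 30.6%, 40.7% and 37.2% and 16.1%, 24.9% and 35.6% (difference -0.78, FDR 0.589). The ranges of both overlapped. With 1 replicate left out in turn the difference ran from 0.53 to 1.19 in Hnrnpl, from -2.04 to -0.85 in Hnrnpdl and from -1.16 to -0.40 in Hnrnpu, and the values 1.19 and -2.04 are those without replicate 1 at 5 mM. In batches 1 and 2 it was -1.40 and -0.37 in Hnrnpu. The genes of the printed poison exons overlapped between concentrations. Srsf3, the smallest SR protein, held 46.7%, 52.6% and 48.2% at 5 mM and 47.5%, 44.6% and 53.2% at 25 mM, and Tra2b held 12.1%, 17.0% and 13.6% and 14.5%, 12.8% and 16.7% (differences -0.040 and 0.055, FDR 0.953 and 0.945). These were among the smallest differences in the family. Tra2a held 45.3%, 33.2% and 34.5% and 49.9%, 47.0% and 36.5% (difference 0.41, FDR 0.668), and Srsf7, with a zinc knuckle beside its RNA recognition motif, held 20.2%, 21.4% and 18.6% and 14.7%, 15.2% and 21.2% (difference -0.31, FDR 0.668).

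**Figure D4:**
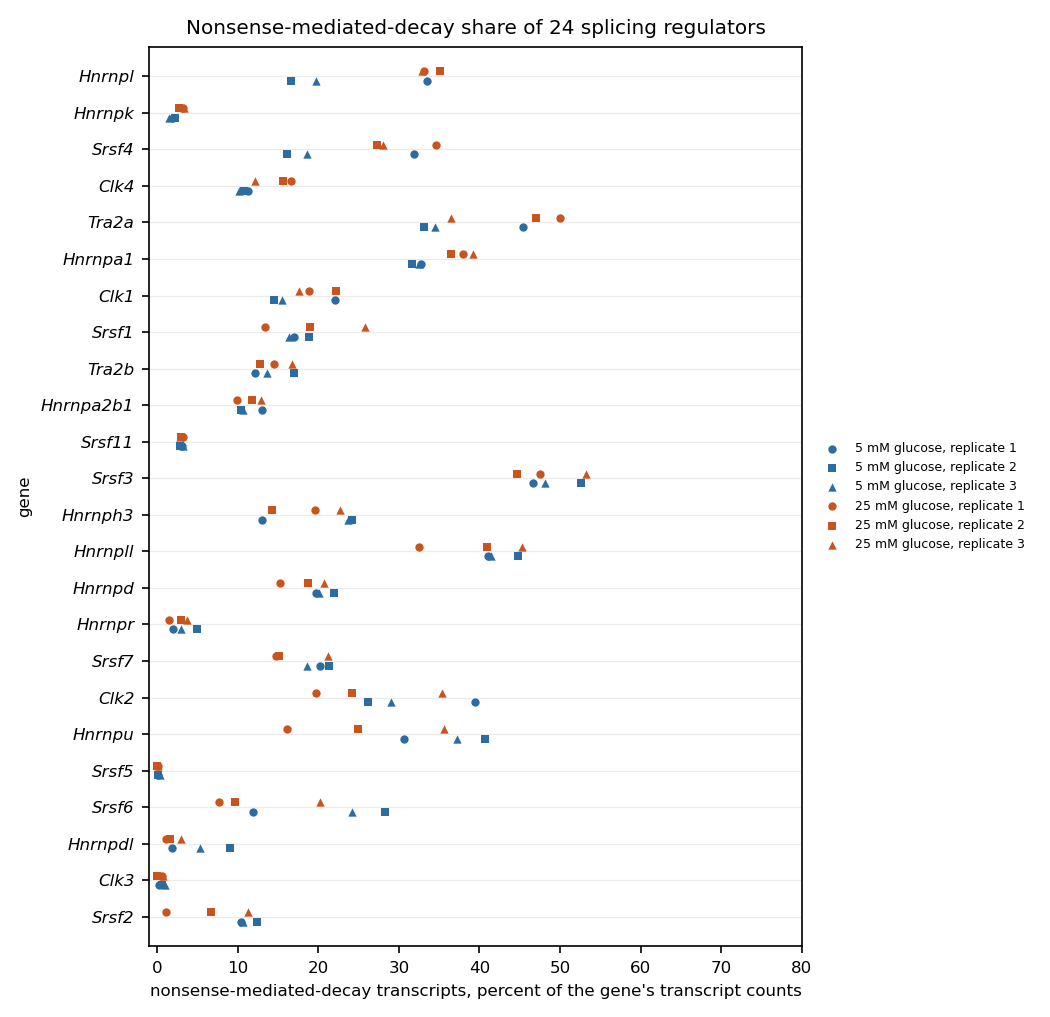
Share of transcripts annotated for nonsense-mediated decay in the 24 splicing regulators tested, in percent of the gene's transcript counts (x axis), with genes ordered by the difference in log2 ratio; blue marks 5 mM and orange 25 mM glucose, and the shapes mark replicates 1 to 3. The colours are separated in 3 rows, Hnrnpk, Clk4 and Hnrnpa1.

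Hnrnpl is described further because its retained-intron share had the lowest p of the members and its NMD share was also among the 6 with the lowest p. Its gene level was 272, 275 and 279.9 CPM at 5 mM and 343, 291 and 259 CPM at 25 mM (log2 fold change 0.11, FDR 0.684). Protein-coding transcripts made up 28.0%, 52.5% and 48.4% of its counts at 5 mM and 17.8%, 13.9% and 26.5% at 25 mM, and every 25 mM replicate lay below every 5 mM replicate. Over the 28 members with retained-intron transcripts, the mean coding percent was lower at 25 mM in 20, where it was lower in 80.9% of the 7091 genes tested for that class. The replicates did not overlap in 5 of the 20 (Hnrnpl, Hnrnpll, Hnrnpm, Hnrnpul1 and Hnrnpul2), against 29.4% of all genes. Among the members, 0 were higher without overlap, against 1.38% of all genes. The classes of a gene share the same total, so a larger share of other classes leaves a smaller coding percent. All 5 genes also had retained-intron shares without overlap. In Hnrnpul1 and Hnrnpul2 all counts lay on coding and retained-intron transcripts, and in Hnrnpl and Hnrnpll on these and NMD transcripts. The lower coding percents are therefore no separate evidence. The coding percent of Hnrnpll was 35.1%, 34.5% and 35.6% and 30.4%, 26.6% and 27.3%. In Clk1 it was 39.6%, 45.0% and 42.5% and 40.2%, 36.9% and 47.1%, and in Clk4 66.8%, 70.8% and 68.4% and 58.9%, 62.0% and 69.5%, both with overlap.

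**Figure D5:**
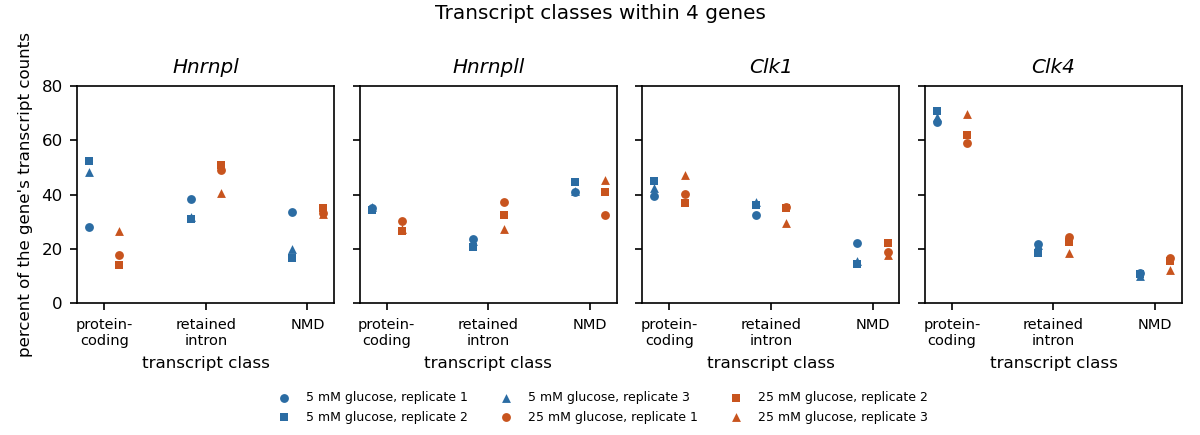
Percent of the transcript counts of Hnrnpl, Hnrnpll, Clk1 and Clk4 (y axis) in protein-coding, retained-intron and NMD transcripts (x axis); blue marks 5 mM and orange 25 mM glucose, and the shapes mark replicates 1 to 3. In Hnrnpl the coding percent was 28.0% to 52.5% at 5 mM against 13.9% to 26.5% at 25 mM, while the coding percents of Clk1 and Clk4 overlap between concentrations.

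Single transcripts were tested in the same way as genes. Of 296 member transcripts tested, 0 were called at an FDR under 0.05 in edgeR, where 0% of 64990 transcripts were called; 25 had an unadjusted p under 0.05, against 16.4% of all, and DESeq2 called 4 of the 280 for which it gave an adjusted p (Hnrnpl-204, Hnrnpf-201, Hnrnpab-202 and Srsf5-201, all lower at 25 mM), against 8.81% of all transcripts. Replicates did not overlap in 46 of the 296 (15.5%), against 24.6% of all transcripts. By class, 74 of 95 retained-intron transcripts of the members had a higher mean at 25 mM (77.9%, against 64.8% of all such transcripts), and 57 of 130 coding transcripts (43.8%, against 36.5%).

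The transcript with the lowest p was Hnrnpl-204, a short coding transcript, at 3.15, 7.84 and 7.59 CPM at 5 mM and 1.52, 0.912 and 0.745 CPM at 25 mM, a log2 fold change of -2.54 with a standard error of 0.49 and an FDR of 0.198. Its more abundant sister Hnrnpl-202 had 49.7, 124 and 113 CPM and 38.1, 19.8 and 59.0 CPM (log2 fold change -1.29, FDR 0.28), whereas the retained-intron transcript Hnrnpl-206 had 52.0, 59.9 and 57.8 CPM and 103, 75.1 and 68.6 CPM (0.54, FDR 0.28). Hnrnpl-204 and Hnrnpl-206 did not overlap between concentrations, in opposite directions.
Of the 12 transcripts with the lowest p, 5 others were coding transcripts with lower means at 25 mM, from 4 genes. Hnrnpf-201 measured 247, 289 and 284 CPM at 5 mM and 152, 146 and 208 CPM at 25 mM (log2 fold change -0.69, FDR 0.225). Srsf5-201 measured 60.5, 59.3 and 63.7 and 36.3, 38.4 and 49.5 CPM (-0.56, FDR 0.244). Hnrnpab-202 and Hnrnpab-201 had log2 fold changes of -1.16 and -0.46, and Hnrnpk-232 -1.09 (FDR 0.233, 0.272 and 0.244). Among these 5 transcripts only Hnrnpk-232 overlapped between concentrations.
In Clk4, the decay transcript Clk4-212 measured 12.3, 11.5 and 13.4 CPM and 33.3, 19.96 and 16.9 CPM (0.92, FDR 0.244) and the coding transcript Clk4-202 16.8, 7.61 and 13.1 CPM and 48.8, 34.6 and 14.2 CPM (1.38, FDR 0.268), while Clk4-201, the coding transcript with the most counts, had a log2 fold change of 0.024. Clk4-212 did not overlap between concentrations and Clk4-202 did. Also higher at 25 mM were the coding transcript Hnrnpr-207 (0.67, FDR 0.239), the retained-intron transcript Hnrnpu-204 (0.88, FDR 0.256) and the noncoding transcripts Tra2b-202 (1.53, FDR 0.236) and Srsf5-210 (2.23, FDR 0.247), the last 2 at under 2 CPM in every replicate. Counts of single transcripts are estimates that divide reads between forms of a gene, so a higher value of one form can come with a lower value of another.

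Other genes of the splicing pathway were read from lists of known roles. Of 9 further kinases of splicing factors 0 were called, with a median log2 fold change of 0.11; the lowest p belonged to Prpf4b (0.27, FDR 0.351), Srpk1 (-0.14, FDR 0.553), the cytoplasmic kinase of SR proteins, and Srpk3 (-0.34, FDR 0.556). Of 29 SR-related and accessory proteins 0 were called, 22 had higher means and the median was 0.21, led by the helicase Ddx17 (0.67, FDR 0.11), Nktr (0.46, FDR 0.126) and Rbm25 (0.70, FDR 0.158). Among 19 other hnRNP relatives 0 were called with a median of -0.079, and the lowest p belonged to Pcbp1 (-0.90, FDR 0.0962), the cold-inducible Rbm3 (-0.43, FDR 0.118) and the polypyrimidine-tract protein Ptbp1 (-0.75, FDR 0.159). Of 26 tested neuronal and tissue-specific splicing regulators 19 had lower means, the median was -0.18 and 0 were called; Rbfox2 (-0.74, FDR 0.0512), Ptbp3 (-0.79, FDR 0.0908) and the neuronal Nova2 (-0.90, FDR 0.109) had the lowest p. Among 18 factors of nonsense-mediated decay and the exon junction complex 0 were called with a median of -0.084, and Upf3b (0.84, FDR 0.0862), Rbm8a (-0.43, FDR 0.238) and the helicase Upf1 (-0.60, FDR 0.267) had the lowest p. DESeq2 called 5 of the 100 genes of these lists to which it gave an adjusted p, Rbfox2, Ptbp3, Nova2, Pcbp1 and Upf3b, where it called 16.6% of all genes.

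Among the marker lists, 8 of 15 rod markers were called, all higher at 25 mM, with a median log2 fold change of 1.06. The median was -1.73 in the 10 vascular, -1.14 in the 10 microglial, -0.33 in the 10 Müller glia and -0.0069 in the 15 inner retinal neuron markers, and 0.48 in the 6 nuclear noncoding RNAs, with 0 called in each by edgeR. An unadjusted p under 0.05 was reached by 8 vascular, 7 microglial and 4 inner neuron markers, all lower at 25 mM, by 1 Müller glia marker higher and 3 lower, and by 3 nuclear RNAs higher and 1 lower.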

How the data were processed

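RNA of 12 retinal explant libraries was analysed, with 3 biological replicates of 2 technical replicates at 5 mM and 25 mM glucose. Per the labels, libraries were made from 4 ng of total RNA with a stranded SMARTer Pico kit and 13 cycles of PCR, and sequenced as read pairs of 101 bases; GRCm38 is the build in the submitters' processing notes, and the counting tool, its use of strand and the annotation are not given in the sources used here. The values deposited by the authors are expected counts of genes and of transcripts, with no scaling to library size. Library totals were 14815285 to 36692484, and the precision they give covers counting error only, since PCR copies were not marked by molecular identifiers. The limit of an FDR under 0.01 with a fold change over 2 follows the study. The paper reports genes that passed this limit between 25 mM and 5 mM glucose, most of them higher at 25 mM. Here 0 of 21061 genes passed it. The study's own fit was not repeated, and the reason for the difference was not tested.

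Technical replicates were summed, and sums were rounded. GENCODE M21 gave a symbol to 48766 gene rows (90.8%) and a type to 134543 transcript rows (92.0%). Gene and transcript levels were tested by quasi-likelihood in edgeR 4.0.16 (R 4.3.3) after TMM scaling and filterByExpr, over 21061 genes and 64990 transcripts. Shares used limma 3.58.1 on the log2 ratio of class to other counts (0.5 added to each), for genes with 60 or more counts in both. CPM values carry TMM factors. Python 3.11.15, pandas 2.3.3 and matplotlib 3.10.9 made tables and plots, and the gene-level and share tests were run on simulated data. The simulated spread between replicates at gene level was below that of these data (biological coefficient of variation 0.297), and no batches were simulated. Those runs therefore do not show how the tests perform at the spread of these data. The p-values measure the spread between samples that the labels call biological replicates. Because the deposited values are estimates, reads of overlapping genes, antisense genes and pseudogenes may be divided between them.

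Members and lists (9 kinases, 29 SR-related, 19 hnRNP relatives, 28 tissue-specific regulators, 18 decay factors, 5 sets of cell markers and 6 nuclear RNAs) were chosen with earlier results of these data known. Values by replicate are given for the CLK and Tra2 genes, the 4 Srsf and 4 Hnrnp genes with the lowest p in each direction and the 6 genes with the lowest p of each share. From each related list, the 3 genes with the lowest p are given by log2 fold change and FDR. The rule also named transcripts that were called. No transcript was called, so the 12 with the lowest p were shown after their values were seen, some by log2 fold change and FDR alone. Srsf2, Srsf3, Srsf7, Hnrnph2, Hnrnpl-202, Hnrnpl-206 and Clk4-201 were added after their values were seen where the rule did not name them. Alternatives covered DESeq2 1.42.0, 2 other scalings, other filters, each batch alone, a replicate block, summed transcript counts, another pseudocount, other denominators and each replicate left out.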

Additional observations from a re-analysis of the deposited data

Results flagged for a closer look

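In 3 of the 68 sets of 6 libraries examined (level and transcript shares of the splicing regulators at each concentration), 1 library lay apart from the others by Dixon's test at the 95% level. For independent values chance alone would give about 3.4 such sets. The 6 libraries are 3 biological replicates with 2 technical replicates each, so they are not independent and that figure is only a rough guide. Srsf12 had 19.1 CPM in the first technical replicate of 25 mM replicate 1 and 9.14 to 11.997 CPM in the other 25 mM libraries. Srsf6 had 389.8 CPM in the first technical replicate of 5 mM replicate 1, against 292 to 319 CPM in the other 5 mM libraries. Hnrnpul1 had a retained-intron share of 9.39% in the first technical replicate of 25 mM replicate 2 and of 2.07% to 3.52% in the other 25 mM libraries. That library had 15.4% of its counts on mitochondrial genes, the highest of the 12 libraries, whose part in the share was not tested. All 3 libraries belong to batch 1.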

How the results depend on the processing

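The count of 0 genes called at an FDR under 0.01 with a fold change over 2, and that of 0 for the NMD share, held under every alternative run. In the analysis reported no gene at all passed either limit, so these counts do not set the splicing regulators apart. The count of genes called at an FDR under 0.05 was 1 with DESeq2 (Hnrnph3), 4 in batch 1 alone (Hnrnph3, Hnrnpab, Hnrnpf and Hnrnpa0), 1 without the second technical replicate of 5 mM replicate 1 (Hnrnph3, chosen after seeing the data), and 0 to 6 with 1 biological replicate left out, the 6 without 5 mM replicate 1 and 0 in each of the other 5 omissions. In the related splicing lists it was 5 with DESeq2, 1 without a filter, 9 in batch 1 alone, 1 without that technical replicate, and 0 to 25 with 1 biological replicate left out. For the retained-intron share it was 2 in batch 1 alone (Hnrnpll and Srsf2, against 6.16% of all genes) and 0 to 5 with 1 replicate left out, and DESeq2 called 4 transcripts, against 8.81% of all. Without the first technical replicate of 25 mM replicate 2, chosen after seeing the data, 0 were called at any level. The cause was not tested. The percent of all genes called was 1.98 in the analysis reported, 16.6 with DESeq2, 5.63 without a filter, 17.3 in batch 1, 0 in batch 2, 8.27 without that technical replicate and 0 to 26.6 with 1 biological replicate left out. The log2 fold change changed sign in Srsf5 with library totals (0.0044), a filter of 50 counts (0.0044) and summed transcripts (0.11), and ranged from -0.11 to 0.0031 with 1 replicate left out. It changed sign in Srsf6 with summed transcripts (0.047) and in batch 2 (0.039), in Tra2b (-0.018) and Srsf12 (0.29) in batch 1, and in Hnrnpf (0.078) and Hnrnpa0 (0.26) in batch 2. Srsf9 had too few decay counts for a test of its share.

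Replicate numbers were not taken as pairs. Correlations of same-numbered samples over genes, on deviations from the group mean, were -0.014, -0.45 and 0.28. The highest correlation, 0.51, joined replicate 1 at 5 mM and replicate 2 at 25 mM. Deviations of 3 replicates sum to 0, which ties these correlations to each other, so they cannot decide whether samples were paired. With the replicate block 0 genes, 0 retained-intron shares, 0 NMD shares and 0 transcripts of the splicing regulators were called, as without it, and 4.70% of all genes were called against 1.98%.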
